A study of Rattus norvegicus with 8 samples.

Results

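Adcy1, Pde1a, Pde2a, Rapgef5 and Creb3l1, genes for the synthesis and breakdown of cyclic nucleotides and for proteins of related effector families, were compared in the habenula of rats with and without chronic restraint. Each gene had 1 probe set with a single symbol in the probe annotation, so 5 of the 379 probe sets in the deposited table were described. The study took habenula tissue from male Sprague-Dawley rats assigned at random to 2 groups and hybridised total RNA, labelled with biotin, to an Affymetrix whole-transcript array, 1 array per rat. The stress group held 4 rats (numbered 7, 8, 10 and 12) kept for 2 hours daily in plastic film restrainers that let air through, for 14 days. The other 4 rats (1, 3, 4 and 5), called non-stress, remained in their home cages. The labels give no age. The RNA came from dissected tissue, so each value is an average over its cell types.

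Cyclic AMP and cyclic GMP are small messengers made by adenylyl and guanylyl cyclases and destroyed by phosphodiesterases, and their level in a neuron follows the balance between these enzymes. They act through protein kinases, nucleotide-gated channels and exchange factors for the small GTPase Rap, and, at the end of the kinase branch, through transcription factors of the CREB family. Medial habenula neurons, which are mostly cholinergic or peptidergic and project to the interpeduncular nucleus, are known for a high level of the phosphodiesterase PDE2A. Of the 5 genes, Rapgef5 and Creb3l1 belong to effector families by sequence and not by direct control: Rapgef5 resembles the cAMP-gated Rap exchange factors but lacks their nucleotide-binding domain, and Creb3l1 (OASIS) is a CREB relative anchored in the endoplasmic reticulum membrane and released by cleavage when that compartment is under stress.

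The members were chosen from a table whose values show a selection on the difference between these 8 arrays, with a largest unadjusted p-value of 0.0499 and a smallest fold of 1.20 in the authors' deposited table. The authors' own rule is not stated in the labels. The differences between the groups given here are therefore descriptions, without a test, and selection of this kind favours large sizes and small spreads. The standard errors given here were fitted over these chosen probe sets alone and may be too small. In the authors' deposited table the unadjusted p-values that brought the 5 genes in were 0.0270 for Adcy1, 0.00267 for Pde1a, 0.0295 for Pde2a, 0.000387 for Rapgef5 and 0.0365 for Creb3l1. Adcy1 lay close to the smallest fold, at a log2 difference of 0.27 where the smallest size in the table was 0.26. Probe sets just outside these limits were not analysed here. Array medians over the table ran from 8.60 to 8.77 on the log2 scale. The tissue label could not be checked against markers, since a marker is in this table because it differed between the groups. The table held 10 of 24 medial habenula symbols, such as Chrna3, a nicotinic receptor subunit (12.61 in non-stress and 12.26 in stressed rats). It held 3 of 11 lateral habenula symbols: the receptor Gpr151 (11.83 and 11.41) was lower, and Vgf (9.67 and 9.96) and Pvalb (8.40 and 9.03) were higher. Of 15 hippocampal and dentate symbols it held 3: the glutamate transporter Slc17a7 (11.25 and 10.93), Neurod1 (10.50 and 10.02) and Nrgn (10.90 and 10.62). Whether these 3 genes were read from hippocampal or from habenula cells was not tested. Non-stress rat 3 lay at the edge of its group in 4 of the 5 genes, so results are given with and without it where it mattered.

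The windows around the annotated starts of the 2 phosphodiesterase genes are shown because both genes were lower in the stressed rats. Each runs from 250 bases before to 50 bases after a RefSeq gene start of build GRCr8 and is read 5′ to 3′ along the gene. Capitals mark GC boxes, the letters GGGCGG on either strand. The Pde1a window lies at chr3:85431729-85432028 on the minus strand, and the Pde2a windows, from 2 alternative starts, at chr1:165235373-165235672 and chr1:165265759-165266058 on the plus strand.
Pde1a: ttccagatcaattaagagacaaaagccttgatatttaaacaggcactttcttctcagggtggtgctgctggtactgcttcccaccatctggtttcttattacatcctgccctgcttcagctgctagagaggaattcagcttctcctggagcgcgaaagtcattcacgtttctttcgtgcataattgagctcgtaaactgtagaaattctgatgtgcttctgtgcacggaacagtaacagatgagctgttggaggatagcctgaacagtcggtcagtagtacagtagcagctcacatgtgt
Pde2a, upstream start: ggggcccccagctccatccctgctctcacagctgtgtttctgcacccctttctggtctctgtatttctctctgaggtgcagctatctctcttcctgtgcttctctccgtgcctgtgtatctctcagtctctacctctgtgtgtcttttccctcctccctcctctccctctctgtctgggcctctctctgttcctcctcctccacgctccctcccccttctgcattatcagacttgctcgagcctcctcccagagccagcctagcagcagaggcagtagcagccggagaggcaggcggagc
Pde2a, downstream start: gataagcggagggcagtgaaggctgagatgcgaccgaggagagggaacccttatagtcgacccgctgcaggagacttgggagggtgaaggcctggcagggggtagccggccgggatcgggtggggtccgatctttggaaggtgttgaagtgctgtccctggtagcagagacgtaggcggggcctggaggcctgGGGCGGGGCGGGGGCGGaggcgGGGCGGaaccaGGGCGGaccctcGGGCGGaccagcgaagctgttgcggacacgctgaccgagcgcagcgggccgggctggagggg

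The 3 windows differ widely in base composition. Pde1a had 45.7% G and C, the upstream Pde2a start 59.0% and the downstream Pde2a start 69.7%, against a median of 51.7% over 33469 rat windows. The downstream Pde2a window held 6 GC boxes and the other windows shown held 0; 33.1% of all windows held at least 1. The cAMP response element half-site TGACG, searched on both strands, was found in 0 of the 7 windows of the 5 genes and in 21.2% of all windows, and its full palindrome TGACGTCA, which contains the half-site, in 0 of 7 and 1.83%. The glucocorticoid receptor half-site TGTTCT was likewise in 0 of 7 windows and in 20.7% of all, the E-box CACGTG in 0 of 7 and 6.42%, and the TATA box TATAAA in 0 of 7 and 14.2%. Of the windows not shown, Adcy1 held 7 GC boxes, the first Rapgef5 window 6, the second 0 and Creb3l1 2. The Adcy1 window, with 84.7% G and C, was left out because it held an open reading frame of 63 codons from an ATG lying 141 bases before the annotated start to the window's end, so that part of it may be coding. A frame at least as long was in 6.86% of all windows, and whether this one is coding was not tested. The array has 1 probe set per gene here and does not separate the alternative starts.

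Synthesis genes went different ways in the stressed rats. Adcy1, a membrane adenylyl cyclase stimulated by calcium and calmodulin in neurons, was at 11.03, 10.78, 11.09 and 11.03 on the log2 scale in non-stress rats 1, 3, 4 and 5 and at 11.21, 11.27, 11.29 and 11.22 in stressed rats 7, 8, 10 and 12. Every stressed rat was above every non-stress rat, with rat 3 the lowest of all. The means were 10.98 ± 0.14 and 11.25 ± 0.04 (SD, n = 4 in each group), a difference of 0.27 ± 0.08 (limma's standard error, as for all differences here) or 1.20-fold. Without non-stress rat 3 the difference was 0.20 ± 0.07, under the smallest size in the table, 0.26. After quantile normalization it was 0.38 ± 0.12. In whole tissue, a change in RNA per cell and a change in the number of cells that express a gene cannot be told apart.

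The other cyclases of the table were lower. From a list of 20 adenylyl and guanylyl cyclase symbols, 4 were in the table, Adcy1 higher and 3 lower. Gucy1a1, the alpha subunit of the guanylyl cyclase that nitric oxide activates, was at 10.33, 10.46, 10.15 and 10.21 in the non-stress rats and at 9.90, 9.84, 10.01 and 9.86 in the stressed rats in the same order, a difference of -0.39 ± 0.09. Npr1, the natriuretic peptide receptor whose inner domain makes cyclic GMP, was at 8.36, 8.82, 8.38 and 8.48 against 8.06, 8.14, 8.19 and 8.15, a difference of -0.37 ± 0.10. Neither gene's groups overlapped, and rat 3 was again the most extreme. Adcy10, the soluble adenylyl cyclase that bicarbonate stimulates, was dim, at the 14.8th percentile of levels in the table, with 7.03 ± 0.05 against 6.72 ± 0.11 and a difference of -0.31 ± 0.08.

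Both phosphodiesterases were lower in the stressed rats. Pde1a, which hydrolyses both cyclic nucleotides and is switched on by calcium and calmodulin, was at 10.72, 10.77, 10.52 and 10.64 in the non-stress rats and at 10.39, 10.24, 10.31 and 10.30 in the stressed rats. The groups did not overlap, and the lowest control (rat 4) lay 0.14 above the highest stressed rat (rat 7). The means were 10.66 ± 0.11 and 10.31 ± 0.06, a difference of -0.35 ± 0.08 or 1.28-fold. After quantile normalization, which here could be run over the chosen probe sets alone, the difference was -0.17 ± 0.07. That scaling moved the median difference of the whole table from -0.28 to -0.17, so Pde1a was then at the table's median. Since 169 of the 379 probe sets were higher, that median lies among the weakest of the lower probe sets. Pde1a, at rank 145 by size on the deposited scale, was thus among the weakest lower ones after this scaling.

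Pde2a, whose activity cyclic GMP stimulates and which hydrolyses both nucleotides, was at 11.65, 11.90, 11.47 and 11.47 in the non-stress rats and at 11.20, 11.25, 11.32 and 11.21 in the stressed rats. All 4 controls were above all 4 stressed rats, and rat 3 was again the highest. The difference was -0.38 ± 0.10 or 1.30-fold, -0.29 ± 0.08 without rat 3 and -0.25 ± 0.08 after quantile normalization. Of 24 phosphodiesterase symbols in the list, these 2 were the ones in the table. Since 91 probe sets of the table had no symbol and 5 had several, a listed gene could also be there unnamed. Nothing is known here of genes without a named probe set.

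The genes of effector families were split. Rapgef5, which loads Rap GTPases with GTP, was at 9.16, 9.14, 9.26 and 9.18 in the non-stress rats and at 9.60, 9.51, 9.44 and 9.58 in the stressed rats. The gap between the groups, 0.18, was the widest of the 5 genes. The means were 9.19 ± 0.05 and 9.53 ± 0.07, a difference of 0.35 ± 0.08 or 1.27-fold, and it was 0.32 to 0.39 over the 10 alternatives of scaling and left-out rat. RefSeq also lists a pseudogene of Rapgef5, and whether the probe set reads it was not tested.

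Creb3l1 was the member with overlapping groups. It was at 8.52, 8.38, 8.21 and 8.15 in the non-stress rats and at 7.91, 8.11, 7.94 and 8.16 in the stressed rats, so stressed rat 12 lay just above non-stress rat 5. The means were 8.31 ± 0.17 and 8.03 ± 0.12, a difference of -0.29 ± 0.10 or 1.22-fold. Of 19 symbols of the CREB family and its coactivators and 15 of Rap exchange factors and Rap proteins, Creb3l1 and Rapgef5 were the ones in the table. The lists of protein kinase A and G subunits, inhibitors and anchors (27 symbols), cyclic nucleotide gated channels (10) and G protein subunits (23) had 0.

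**Figure D1:**
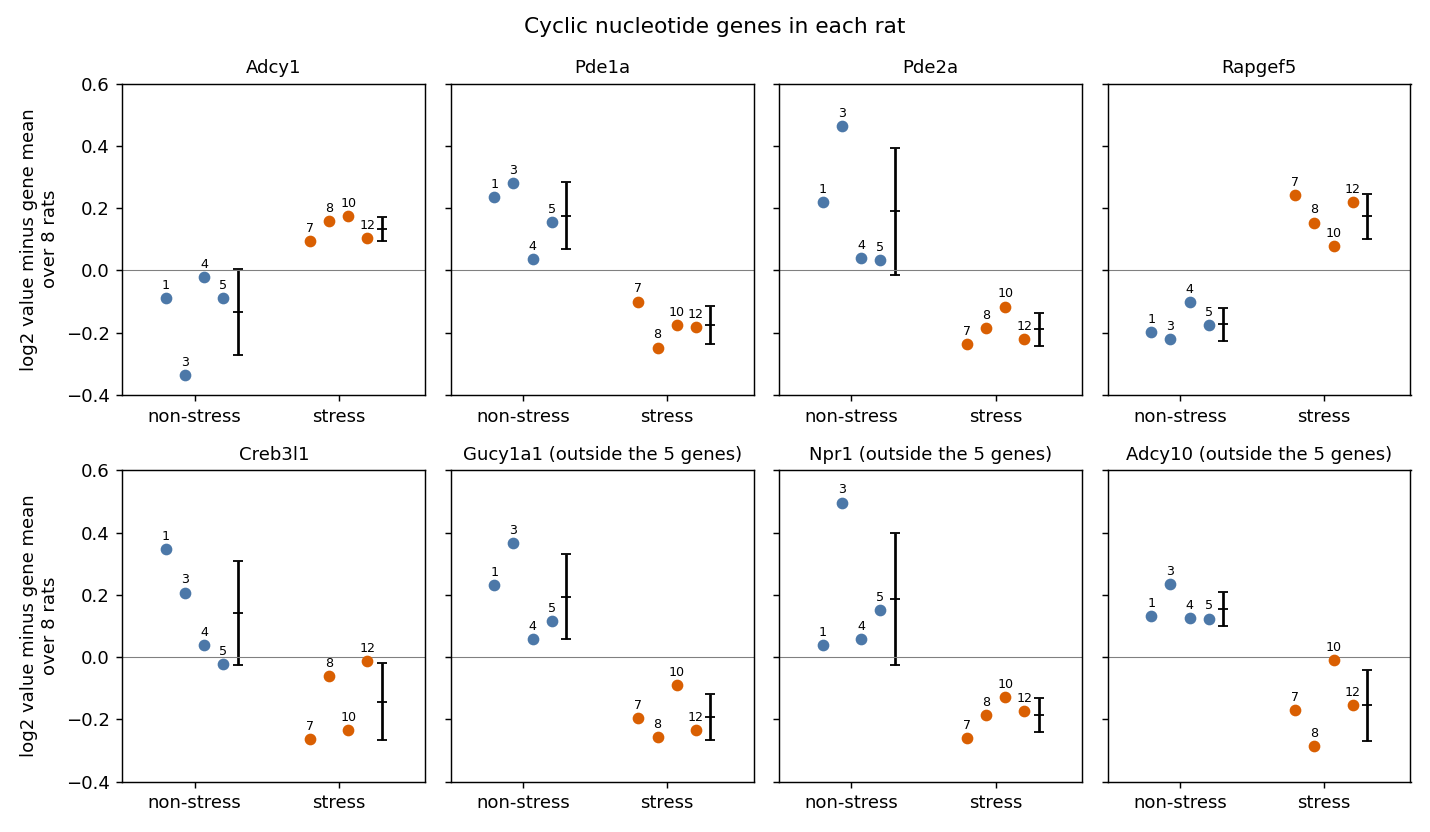
Centred log2 values, with each gene's 8-rat mean set to 0 (vertical axis), for the 5 genes and the 3 other cyclases of the table, by group. Points are rats, labelled by number, with mean ± SD of 4 rats beside them; Creb3l1 is the panel in which the groups overlap, and non-stress rat 3 is the lowest point for Adcy1 and the highest for Pde2a.

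These counts were set against the whole table. The 5 genes gave 2 higher and 3 lower, where 44.6% of the 379 probe sets were higher in the stressed rats. Their groups did not overlap in 4 of 5, where 83.4% of all probe sets had groups that did not overlap. The median difference was -0.29 over the 5 genes, -0.33 over the 8 pathway genes of the table (2 higher, 6 lower) and -0.28 over all 379. Since the table was chosen on the same contrast, nothing particular to these genes can be read from the counts or the medians. With no size under 0.26 in the table, the median of any mostly lower set lies beyond -0.26.

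Synthesis and breakdown were set side by side within each rat, as the centred log2 value of Adcy1 minus the mean centred value of Pde1a and Pde2a. The values were -0.31, -0.71, -0.06 and -0.18 in non-stress rats 1, 3, 4 and 5 and 0.26, 0.37, 0.32 and 0.31 in stressed rats 7, 8, 10 and 12. All 4 stressed rats lay close together above 0, and the controls were spread below it. The group means were -0.32 ± 0.28 and 0.32 ± 0.05, a difference of 0.63, or 1.55-fold in the ratio of the cyclase to the phosphodiesterases. The difference was 0.50 without non-stress rat 3, 0.62 with Pde1a alone and 0.64 with Pde2a alone. It is a contrast between genes picked with their directions known and carries no test. Centring over the 8 rats makes the group means mirror each other, and the sides of 0 follow largely from that choice of genes. The contrast describes Adcy1 among the 4 cyclases of the table. The mean of the cyclic GMP producers Gucy1a1 and Npr1 differed by -0.38 and Adcy10 by -0.31, beside -0.37 for the phosphodiesterase mean.

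**Figure D2:**
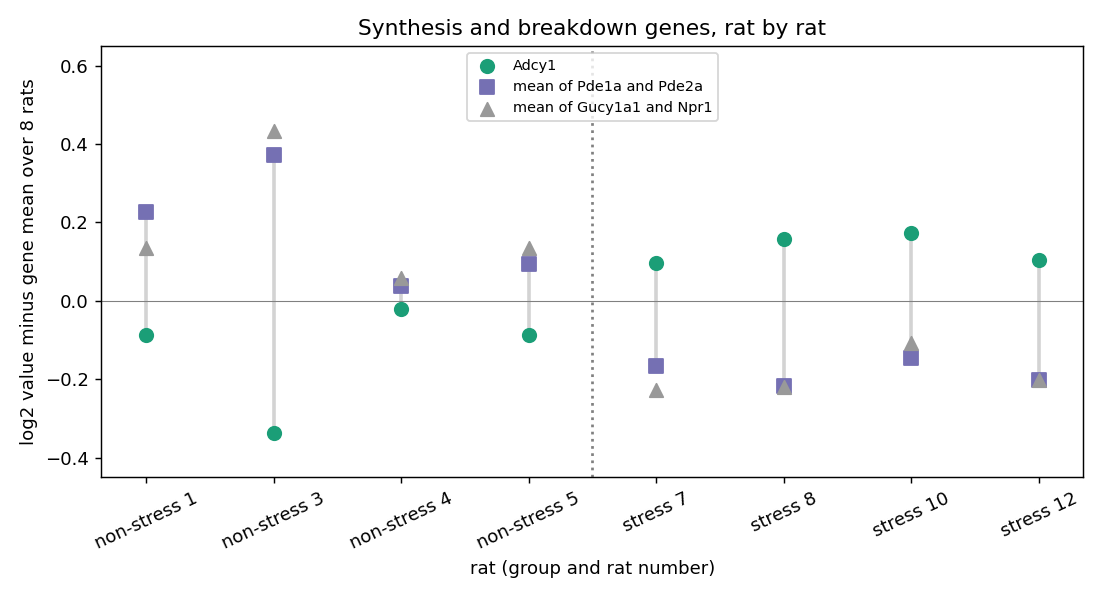
Centred log2 values (vertical axis) in each of the 8 rats (horizontal axis), for Adcy1 (circles), the mean of Pde1a and Pde2a (squares) and the mean of Gucy1a1 and Npr1 (triangles). Grey bars join Adcy1 to the phosphodiesterases; Adcy1 lies below them in all 4 non-stress rats and above them in all 4 stressed rats, and the triangles stay near the squares.

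The spread between rats differed by gene. The SD among non-stress rats was 3.82 times that among stressed rats for Pde2a and 3.58 times for Adcy1, where rat 3 lay far from the other controls. It was 1.77 times for Pde1a and 1.34 times for Creb3l1, and for Rapgef5 it was 0.721 times, so that there the stressed rats were the more spread. With 4 of the 5 genes more spread in controls, the count is near the background, since 67.8% of the 379 probe sets had the larger SD in the non-stress rats and the median ratio was 1.45.

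Covariation between the genes was examined on deviations from the group means, which leave out the difference on which the table was chosen. Pearson and Spearman correlations over the 8 rats were tested by 2-sided exact permutation of rats within groups (smallest possible p = 0.00174) and adjusted over the 10 pairs by the Benjamini-Hochberg method. None of the 10 pairs passed after adjustment by either measure, and 1 pair had an unadjusted p under 0.05, a share to be read against the 7.37% of all 71631 pairs of probe sets in the table that did.

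That pair was Pde2a and Rapgef5, with r = -0.64 (exact permutation p = 0.0330, adjusted p = 0.330) and rho = -0.83 (exact permutation p = 0.0226, adjusted p = 0.226). Rats with more Pde2a than their group had less Rapgef5. Without the rats farthest from the median of Pde2a, non-stress 3 and 5, r was -0.90, and leaving out single rats gave -0.75 to -0.52. After subtracting each array's median r was -0.92 (exact permutation p = 0.00694, adjusted p = 0.0694), and after quantile normalization it was -0.06.

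Adcy1 and Pde2a had the strongest Pearson correlation of the 10, r = -0.80, which did not pass (exact permutation p = 0.167, adjusted p = 0.486; rho = -0.40, exact permutation p = 0.505, adjusted p = 0.722). It rests on non-stress rat 3, as r was 0.12 without that rat and 0.53 without rats 3 and 4. The opposite movement of these genes over the pooled deviations thus rests on 1 animal. By group, r was -0.93 in the non-stress and 0.92 in the stressed rats, so the groups shared no direction. Adcy1 and Pde1a had r = -0.74 (exact permutation p = 0.115, adjusted p = 0.486; rho = -0.64, exact permutation p = 0.101, adjusted p = 0.503), and r was -0.56 without non-stress rats 3 and 4. The phosphodiesterases Pde1a and Pde2a had r = 0.66 with each other (exact permutation p = 0.194, adjusted p = 0.486; rho = 0.60, exact permutation p = 0.229, adjusted p = 0.573), and r was 0.20 without non-stress rats 3 and 4 and -0.84 after quantile normalization. The same scaling turned the correlation of Adcy1 with Pde1a to 0.42. The other 6 pairs had r from -0.32 to 0.46 and adjusted p from 0.715 to 0.747 by the same exact permutation test. Among them, Adcy1 with Rapgef5 went from 0.22 to -0.96 and Pde1a with Rapgef5 from -0.32 to 0.36 when non-stress rats 3 and 4 were left out. Signs also differed between non-stress and stressed rats for Adcy1 with Rapgef5 (0.77 and -0.97), Pde1a with Pde2a (0.84 and -0.37) and Pde1a with Rapgef5 (-0.99 and 0.47). The sign was shared for Adcy1 with Pde1a (-0.78 and -0.63) and for Pde2a with Rapgef5 (-0.78 and -0.99).

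**Figure D3:**
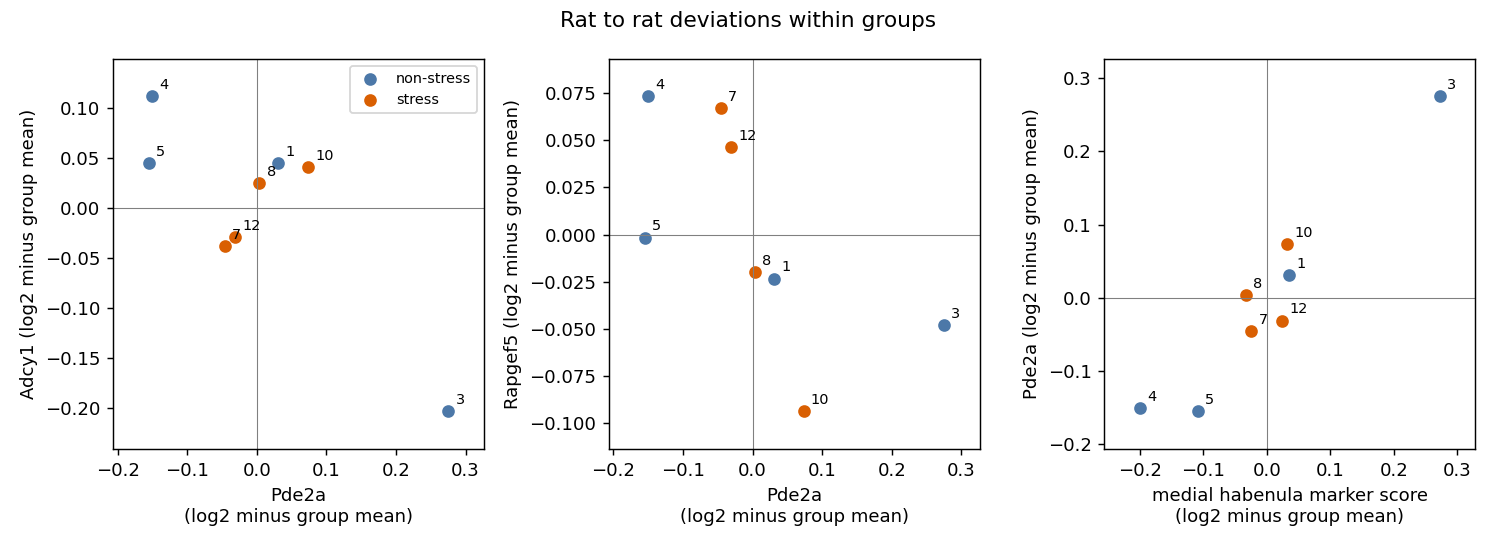
Deviations from the group mean (log2) of Adcy1 against Pde2a, Rapgef5 against Pde2a, and Pde2a against the medial habenula marker score, 1 point per rat, labelled by number. In the first panel non-stress rat 3 alone sets the negative slope (r -0.80 with it and 0.12 without it); in the third r is 0.96.

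Markers of medial habenula neurons moved with the same rats. The mean over 10 medial habenula markers, centred per gene, ran from 0.02 to 0.49 in the non-stress rats and from -0.25 to -0.19 in the stressed rats. All 10 were lower in the stressed rats, as were 210 of the 379 probe sets. These 10 of 24 symbols are in a table chosen on this contrast, so neither the count nor the ranges describe the markers outside it. Over the pooled deviations Pde2a followed the medial habenula score with r = 0.96 (exact permutation p = 0.0243, adjusted over 10 relations p = 0.122). Its rho was 0.88 (exact permutation p = 0.0799, adjusted p = 0.160). Without non-stress rats 3 and 5, r was 0.86 (exact permutation p = 0.25). By group, r was 0.98 in the non-stress and 0.49 in the stressed rats. Following the score was common among the probe sets lower in stressed rats: the other 197 had a median r of 0.62 with it, and the other 167 that were higher had -0.20. Adcy1 opposed the score, with r = -0.89 (exact permutation p = 0.0625, adjusted p = 0.126) and rho = -0.48 (exact permutation p = 0.427, adjusted p = 0.427). For Adcy1, r was -0.43 without rat 3 and 0.09 without rats 3 and 4. By group it was -0.94 in the non-stress and 0.19 in the stressed rats.

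Pde1a had r = 0.79 with the score (exact permutation p = 0.0885, adjusted p = 0.126), Rapgef5 -0.56 (exact permutation p = 0.0747, adjusted p = 0.126) and Creb3l1 0.49 (exact permutation p = 0.401, adjusted p = 0.446). Of the 5 genes 1 had an unadjusted p under 0.05, against 16.5% of the other probe sets. None of the relations passed after adjustment on the deposited scale. With each array's median subtracted 2 did, Pde2a with r = 0.92 and Rapgef5 with r = -0.91 (exact permutation, adjusted p = 0.0174 for both). These medians came from the chosen probe sets alone, and the share of other probe sets was not computed on that scale. After quantile normalization the correlation with the score was 0.21 for Pde2a, -0.54 for Pde1a, where the sign turned, and -0.90 for Rapgef5. For Rapgef5 it was -0.33 without non-stress rat 4.

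The 3 hippocampal and dentate markers of the table (Slc17a7, Neurod1 and Nrgn, of 15 symbols) gave a score from -0.01 to 0.43 in non-stress and from -0.24 to -0.15 in stressed rats. It ran closely with the medial habenula score in the non-stress rats. Non-stress rats 1, 3, 4 and 5 had 0.18, 0.43, -0.01 and 0.12, against 0.26, 0.49, 0.02 and 0.11 for the medial habenula. Stressed rats 7, 8, 10 and 12 had -0.24, -0.17, -0.15 and -0.16, against -0.25, -0.25, -0.19 and -0.20. No correlation between the 2 scores was computed. They are not taken as separate readings, and whether they reflect different cells was not tested. Pde2a followed it with r = 0.93 (exact permutation p = 0.0122, adjusted p = 0.122), Rapgef5 opposed it with r = -0.62 (exact permutation p = 0.0434, adjusted p = 0.126), and the other 3 genes had p from 0.0764 to 0.455 by the same exact permutation test. Without the 2 rats farthest from the median, r was 0.88 for Pde2a and -0.56 for Rapgef5, and it changed sign for Adcy1 (-0.87 to 0.55) and Pde1a (0.68 to -0.37). After quantile normalization r was 0.51 for Pde2a, -0.74 for Rapgef5, -0.63 for Adcy1 and -0.66 for Pde1a, where the sign turned. Leaving out non-stress rat 3 gave 0.69 for Pde2a and -0.28 for Adcy1, and leaving out non-stress rat 4 gave 0.36 for Pde1a. The other 204 probe sets that were lower in stressed rats had a median r of 0.61 with this score. These 2 of 5 stand against 13.5% of the other probe sets at p under 0.05. The part of either marker group in the differences of Adcy1, Pde1a, Pde2a, Rapgef5 and Creb3l1 was not tested. Lists for thalamic neurons, choroid plexus and ependyma, oligodendrocytes and astrocytes had 0 members in the table. Lateral habenula markers gave 2 higher and 1 lower of 11 symbols, microglial markers 1 higher and 1 lower of 12, and endothelial and mural markers 2 lower of 11.

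**Figure D4:**
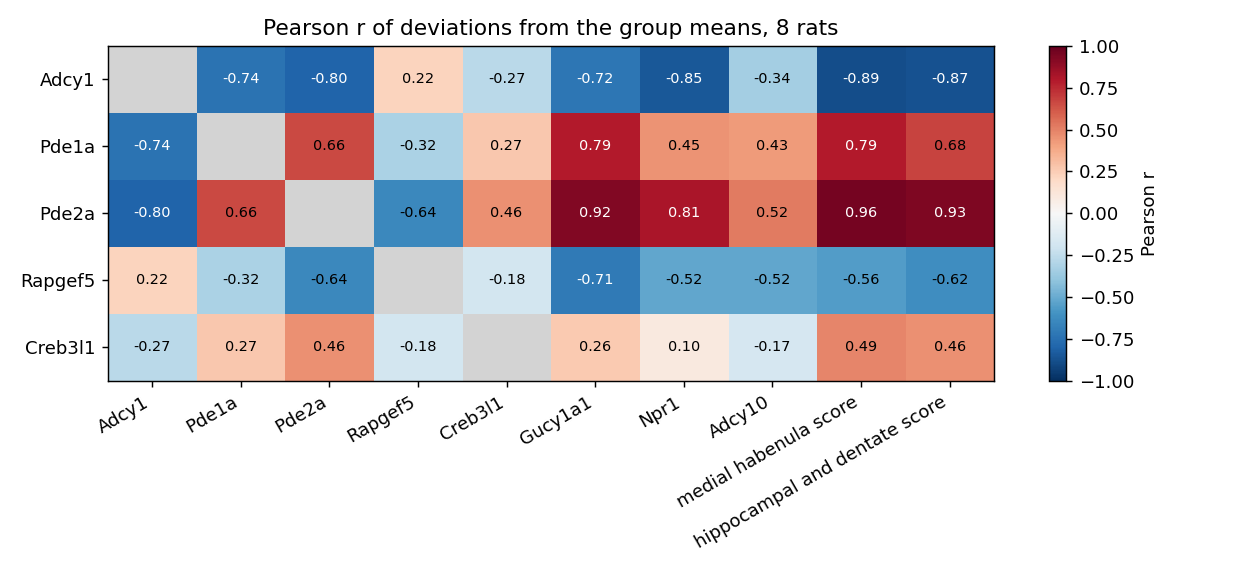
Pearson r of deviations from the group means over 8 rats, with the 5 genes as rows and, as columns, the same genes, the 3 other cyclases and the 2 marker scores. Red is positive and blue negative; the Pde2a row is red under the marker scores (0.96 and 0.93) and the Adcy1 row blue (-0.89 and -0.87), and no relation passed after adjustment.

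The named probe sets whose deviations were most like each gene's over the 8 rats are given as a description. For Adcy1 they were Usp2, a deubiquitinating enzyme (r = 0.93), Adarb1, an RNA-editing adenosine deaminase (0.92), and Ptger3, a prostaglandin E2 receptor (0.88), all higher in the stressed rats by 0.27 to 0.34. For Pde1a they were Dpysl4, a collapsin response mediator protein (0.98), Sstr4, a somatostatin receptor (0.94), and Rpe65, an isomerase of the visual cycle (0.89). Dpysl4 and Sstr4 were lower in the stressed rats (-0.38 and -0.42), as Pde1a was, and Rpe65 was higher (0.47).

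For Pde2a the most alike were Pik3r3, a regulatory subunit of phosphoinositide 3-kinase (0.97), Prima1, the membrane anchor of acetylcholinesterase (0.95), and Syt15, a synaptotagmin that is also in the medial habenula list (0.95), with differences of -0.28, -0.29 and -0.27. For Rapgef5 they were Ak8, an adenylate kinase (0.83), Pcdh20, a protocadherin (0.81), and Fkbp5, which lowers the hormone affinity of the glucocorticoid receptor (0.79). Pcdh20 and Fkbp5 were higher in the stressed rats by 0.61 and 0.60, and Ak8 was lower (-0.31). For Creb3l1 they were Klhl1, a kelch family protein of neurons (0.97), Trhde, the enzyme that degrades thyrotropin-releasing hormone (0.93), and Tyrp1, a melanin pathway enzyme (0.87), with differences of -0.46, -0.30 and -0.46. Each gene was compared with every named probe set over 8 rats only, and the upper 5% of all pairs had r above 0.80.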

How the data were processed

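Habenula RNA from 8 rats was measured, and the deposited values are log2 intensities per probe set; amplification and labelling kits are named per the labels' protocols, while background correction, summarization, normalization, array design and genome build were not given in the sources used here. Both deposited tables cover 379 probe sets and differ by at most 0. The authors' deposited p-values are unadjusted. Each group has 4 arrays, which limits the precision. Of the probe sets 283 had 1 symbol, all matched by gene ID to RefSeq, 5 had several and 91 none; the last 2 kinds were not named. Differences and standard errors came from limma 3.58.1 in R 4.3.3 over the whole table, stress minus non-stress, unpaired, and are descriptions; the fit and the permutation test were tested on simulated data. Correlations used residuals from group means and exact permutation over 576 orders (Python 3.11.15, numpy 2.4.6), with Benjamini-Hochberg adjustment at 0.05. The genes named are the 5 genes, genes of 7 pathway lists found in the table, markers, and the 3 probe sets most like each gene; Gpr151 and Chrna3 are named as markers. Alternatives were quantile normalization, array medians, unequal variances, a dim-probe filter (25%), the other table, Spearman's rho, a median marker score and leaving out each rat. Members and lists were chosen with earlier results of these data known.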

Additional observations from a re-analysis of the deposited data

Results flagged for a closer look

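In 22 sets of 4 rats (the 8 genes, 2 marker scores and the synthesis against breakdown contrast, by group), 2 had 1 rat far from the rest, where chance gives about 1 in 20. Adcy10 in non-stress rat 3 was at 7.11, while the other non-stress rats reached at most 7.01. Stressed rat 7 had a hippocampal and dentate score of -0.24, and the remaining stressed rats had scores from -0.17 to -0.15.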

How the results depend on the processing

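Of the 13 alternatives for the 5 genes, 3 (the other table, the dim filter and unequal variances) leave a difference of means as it is. Under the other 10, 48 of 50 values moved by less than the spread between rats and 0 changed sign. Groups that do not overlap fix the sign when a rat is left out, which does not cover Creb3l1, whose groups overlap. The exceptions came with quantile normalization, which gave 0.38 for Adcy1 and -0.17 for Pde1a, and also -0.43 for Adcy10; the cause was not tested. That scaling moved the median difference of the table from -0.28 to -0.17 and left 169 probe sets higher, as before. The synthesis against breakdown contrast ran from 0.50 to 0.72 under the 11 alternatives that can move it. The count of member pairs past the threshold was 0 under 11 alternatives. Relations with marker scores past it rose from 0 to 2 with array medians subtracted and were 0 under the other alternatives. Leaving out a rat leaves fewer orders, so a lone pair or relation could not pass there. Without non-stress rat 4, Pde2a with Rapgef5 was at that floor (exact permutation p = 0.00694, adjusted p = 0.0694). The counts of 0 with a rat left out are therefore not a sign of stability. No paired analysis was possible because the groups share no rat number. The dim filter removed Adcy10 and so gave it no value. Only 4 rats per group limit every value.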

Other observations

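The 3 other cyclases were also set against the 5 genes on deviations from the group means, a family of 15 relations added after the values were seen. None passed after adjustment (exact permutation, adjusted p from 0.226 to 0.905), and 3 had an unadjusted p under 0.05, where 7.37% of all pairs of probe sets in the table did. Pde2a and Gucy1a1, the alpha subunit of the nitric oxide receptor cyclase, had r = 0.92 (exact permutation p = 0.0208; rho = 0.88, p = 0.0469), with r = 0.83 without non-stress rat 3 and 0.51 after quantile normalization. Rapgef5 and Gucy1a1 had r = -0.71 (exact permutation p = 0.0451; rho = -0.76, p = 0.0503), and Pde2a and Adcy10 had r = 0.52 (exact permutation p = 0.0434; rho = 0.62, p = 0.0868). The last was 0.35 without non-stress rat 3, 0.09 with array medians subtracted and -0.31 after quantile normalization. Pde2a and Npr1 had r = 0.81 (exact permutation p = 0.116), and -0.06 without non-stress rat 3.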
